A study of Mus musculus with 6 samples.

Results

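Respiratory complex I was followed in neutrophils through every nuclear gene whose symbol starts with Nduf, the prefix given in the mouse to subunits and assembly factors of NADH:ubiquinone oxidoreductase. The rule took 47 of the 52636 rows of the deposited expression table. By their known place in the enzyme, 7 of them are core subunits, 29 are accessory subunits and 8 are assembly factors (the Ndufaf genes). The other 3 rows carry the name without belonging to these classes: Ndufa4, which is counted today as a subunit of cytochrome c oxidase, its paralog Ndufa4l2 and the pseudogene Ndufab1-ps. Testing required an average level of 1 TPM or more, and all 7 core genes, all 29 accessory genes and 4 of the 8 assembly factors met it, 40 genes in all, as did Ndufa4.
The neutrophils came from the bone marrow of C57BL/6N mice aged 10 weeks, and their RNA was sequenced in 6 libraries, 3 for each label (WT and LRP5-null), to compare cells with and without LRP5. The mice of the second group are labelled LRP5f/f/Lyz2Cre+, floxed at Lrp5 and with a Cre recombinase driven from Lyz2, a gene active in the myeloid lineage at large and not in neutrophils alone. The labels name no Cre for the WT mice, so the Cre insertion and the loss of Lrp5 cannot be told apart. Whether each library is 1 mouse is not stated, and p-values therefore measure the spread between these libraries. Expression is given as TPM, in which reads are scaled to transcript length and then to one total per library, so levels of different genes can be compared.
The libraries held between 249841492 and 340580330 reads. All 12 neutrophil markers on a fixed list were abundant, and together they made up 409140 to 451366 TPM in the libraries labelled WT and 437706 to 456958 TPM in those labelled LRP5-null. Lrp5 itself was 1.12, 1.31 and 1.42 TPM in the libraries labelled WT and 1.68, 1.77 and 2.07 TPM in those labelled LRP5-null, so the targeted transcript was not lower in the latter, and each direction below rests on the labels. Which exons the floxed allele loses is not given in the sources used here. Lyz2, the lysozyme gene that drives the Cre, was 24797 to 26791 TPM in the libraries labelled WT and 13360 to 14027 TPM in those labelled LRP5-null and fell by 0.91 on the log2 scale (limma, adjusted p = 0.00351). Ribosomal RNA took up 3.3% of the reads of WT replicate 3, close to the 2.69% to 2.98% of the LRP5-null group, but only 1.2% and 1.3% of those of WT replicates 1 and 2.
Complex I takes electrons from NADH, passes them along a flavin and a chain of iron-sulfur clusters in its matrix arm to ubiquinone, and pumps protons through its membrane arm. The core subunits are shared with bacteria and do the catalysis, the accessory subunits surround and stabilise them, and the assembly factors help to build the enzyme and then leave it. Part of the membrane arm is encoded by mitochondrial DNA, so the complex needs products of both genomes. Mature neutrophils are known for few mitochondria and for relying mainly on glycolysis, while their dividing precursors in the marrow hold more.

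The promoters of these genes were looked at because most members differed in one direction, and NRF1 and ETS-family factors are known regulators of respiratory chain genes. RefSeq windows (GRCm38.p6) were matched by symbol for 39 of the 44 genes in the 3 classes, with 41 windows in all, and for the others there was no window. In the 250 bases before the start, searched on both strands, the NRF1 motif (GCGC, any base, TGCGC) was found in 8 windows (19.5%) against 3.74% of all 32851 windows, in 7 genes, and the ETS motif CCGGAAG in 5 (12.2%) against 6.91%. The CCAAT box (CCAAT) was in 34.1% of the windows against 33.8%, the TATA box (TATAAA) in 12.2% (4 genes) against 12.4%, and the YY1 motif (AAGATGG followed by CG) in 0 of 41 against 0.606%. Ndufa5 and Ndufa7 each have overlapping windows that hold the same single match, of NRF1 and of the TATA box, which counts once for each window. No matches of different motifs overlapped. The windows below belong to the core gene and the assembly factor with the smallest p of their classes, Ndufs7 and Ndufaf8, to the assembly factor that was lower, Ndufaf1, and to Ndufb4, the one with several NRF1 matches. Capitals mark the motif matches on either strand, which in Ndufs7 is a match to the TATA box letters, 99 bases before the start.
Ndufs7 (core, chr10:80249199-80249448, plus strand): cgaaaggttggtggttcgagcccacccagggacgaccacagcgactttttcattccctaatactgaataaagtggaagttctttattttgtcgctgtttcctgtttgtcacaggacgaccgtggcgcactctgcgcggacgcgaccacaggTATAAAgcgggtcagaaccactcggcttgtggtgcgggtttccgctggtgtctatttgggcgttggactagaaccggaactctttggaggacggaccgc
Ndufb4 (accessory, chr16:37654369-37654618, minus strand): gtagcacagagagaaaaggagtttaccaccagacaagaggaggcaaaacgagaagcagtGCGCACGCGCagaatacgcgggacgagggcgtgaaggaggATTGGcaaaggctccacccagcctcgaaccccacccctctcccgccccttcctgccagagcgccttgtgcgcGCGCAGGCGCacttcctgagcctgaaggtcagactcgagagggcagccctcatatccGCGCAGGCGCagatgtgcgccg
Ndufaf8 (assembly, chr11:120098684-120098933, plus strand): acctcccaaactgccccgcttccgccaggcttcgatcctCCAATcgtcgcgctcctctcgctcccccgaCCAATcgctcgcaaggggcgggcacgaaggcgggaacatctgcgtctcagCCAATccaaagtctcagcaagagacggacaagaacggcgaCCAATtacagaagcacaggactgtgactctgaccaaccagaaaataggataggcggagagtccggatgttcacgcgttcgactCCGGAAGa
Ndufaf1 (assembly, chr2:119662835-119663084, minus strand): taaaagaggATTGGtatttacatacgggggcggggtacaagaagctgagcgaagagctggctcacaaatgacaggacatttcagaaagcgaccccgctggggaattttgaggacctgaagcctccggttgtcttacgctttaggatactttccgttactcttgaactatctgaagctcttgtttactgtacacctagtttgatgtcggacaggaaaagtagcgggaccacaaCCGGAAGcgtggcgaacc
Ndufaf8 and Ndufaf1 both have an ETS match close to the start, 8 and 18 bases before it, and they lay at opposite ends of the differences between groups among the assembly factors. The 6 tested genes with an NRF1 match had a median log2 fold change of 0.23 and the 30 without one 0.21. With and without a match, the medians were 0.23 (5 genes) and 0.20 (31) for the ETS motif and 0.14 (13) and 0.24 (23) for the CCAAT box. For the TATA box they were 0.28 (4 genes) and 0.20 (32). None of these differences was tested. A match describes the letters of a window and does not show a bound factor.

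Most complex I genes were somewhat higher in the libraries labelled LRP5-null, and no single one passed the test. The difference of each gene was fitted on log2(TPM + 1) with limma over all 9775 genes tested, with Benjamini-Hochberg adjustment, and a gene was called at an adjusted p under 0.05. In that fit 0 of the 40 genes of the 3 classes were called, against 52 of all genes (0.532%, with 0.266% called as higher). The smallest adjusted p, 0.0648 in limma, belonged to both Ndufaf8 and Ndufb8. An unadjusted p under 0.05 with the higher level in the libraries labelled LRP5-null was given by 17 of the 40 genes (42.5%), against 14.4% of all genes tested, and with the lower level by 0 of the 40, against 9.12%.
Counted without a test, by the sign of the log2 fold change, 37 of the 40 genes were higher, where 58.8% of all genes tested were. In 24 of the 40 (60.0%) every library labelled LRP5-null lay above every library labelled WT, against 17.4% of all genes, and in 0 of the 40 below, against 12.3%. Fewer genes stood apart under some of the alternatives given below. The median log2 fold change of the 40 genes was 0.20 and that of all genes 0.04. Single genes ranged from −0.19 to 0.54. For a gene whose groups do not overlap, the exact permutation test over libraries (two-sided) gives p = 0.1, the smallest that 3 against 3 can give.
Added up, the 44 genes of the 3 classes stood at 1945, 1933 and 1947 TPM in the libraries labelled WT and at 2214, 2207 and 2148 TPM in those labelled LRP5-null. The groups did not overlap, and the WT libraries differed from each other by less than the distance to the other group. The means were 1942 ± 7.33 and 2190 ± 36.0 TPM (SD, n = 3 each), a ratio of 1.13. In a bulk sample, more cells that hold these transcripts and more of the transcripts per cell cannot be told apart.

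**Figure D1:**
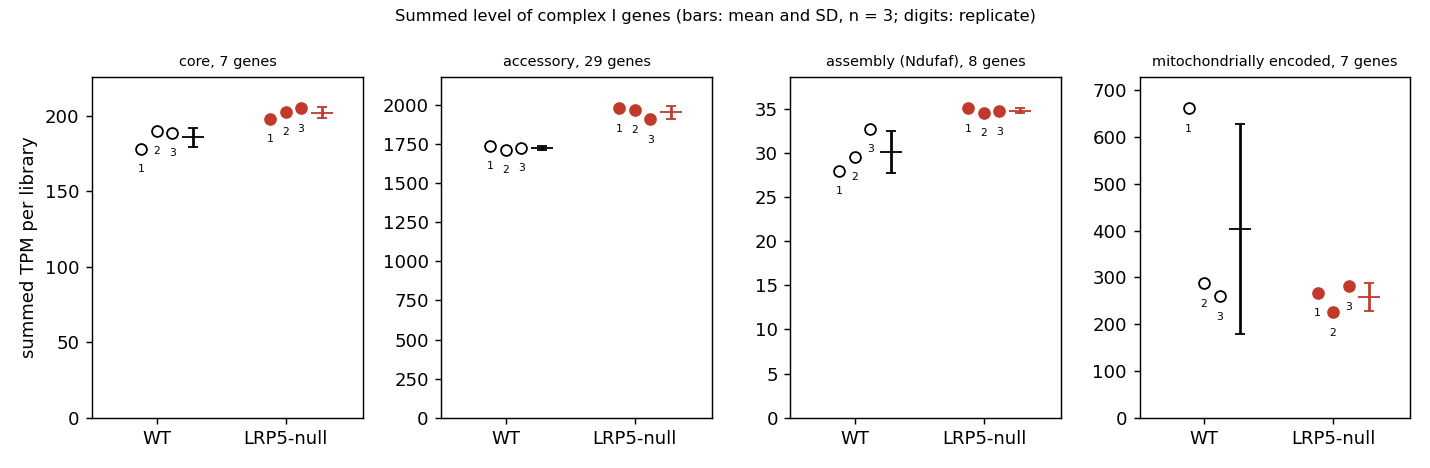
Summed TPM (vertical axis, from 0) of the core, accessory and assembly genes and of the mitochondrially encoded subunits in each library, open circles for WT and filled for LRP5-null, with replicate numbers, and the mean with SD (n = 3) beside them. The nuclear classes lie higher in every library labelled LRP5-null, while WT replicate 1 stands alone at 662 TPM for the mitochondrially encoded genes.

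Which WT libraries entered the fit decided the calls, while the median of the 40 genes stayed between 0.18 and 0.21 with any library left out. Without WT replicate 3, limma called 11 of the 40 genes, all higher (8 accessory genes, the core gene Ndufs7 and the assembly factors Ndufaf8 and Ndufaf3), in a comparison in which 19.6% of all genes were called, 12.1% as higher. With any other library left out 0 of the 40 were called. Against WT replicate 3 alone, 35 of the 40 were higher (48.6% of all genes), with a median of 0.19.
Transcripts of complex I genes are short, with a median length of 1015 bases against 2926 over the 8769 tested genes that have one, and their median GC content was 51.9% against 50.0%. GC content went along with how a gene's level in 1 library departed from its average over all 6: Spearman's rho across genes was −0.61 for WT replicate 1, −0.43 for WT replicate 2 and 0.37 for WT replicate 3, and it lay between 0.33 and 0.44 for the LRP5-null group. These describe libraries, since genes are not independent. With GC and length trends taken out of each library, 29 of the 40 genes were higher (50% of all genes) and their median was 0.12 (−0.00011 for all genes). Ndufaf8, Ndufb8 and Ndufa9 were then called (limma, adjusted p = 0.0377, 0.0220 and 0.0409), in a fit that called 4.9% of all genes, 1.79% as higher.

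Levels differed far more among the subunits than between the groups. Over all libraries the 40 genes ranged from a mean of 3.77 TPM (Ndufaf1) to 164 TPM (Ndufb9), with a median of 32.5 TPM against 11.8 TPM over all genes tested. The accessory genes had a median of 52.6 TPM, the core genes 30.3 TPM and the 4 tested assembly factors 6.79 TPM. In the middle of that order many neighbours had overlapping libraries, as the plot of levels by gene shows.

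**Figure D2:**
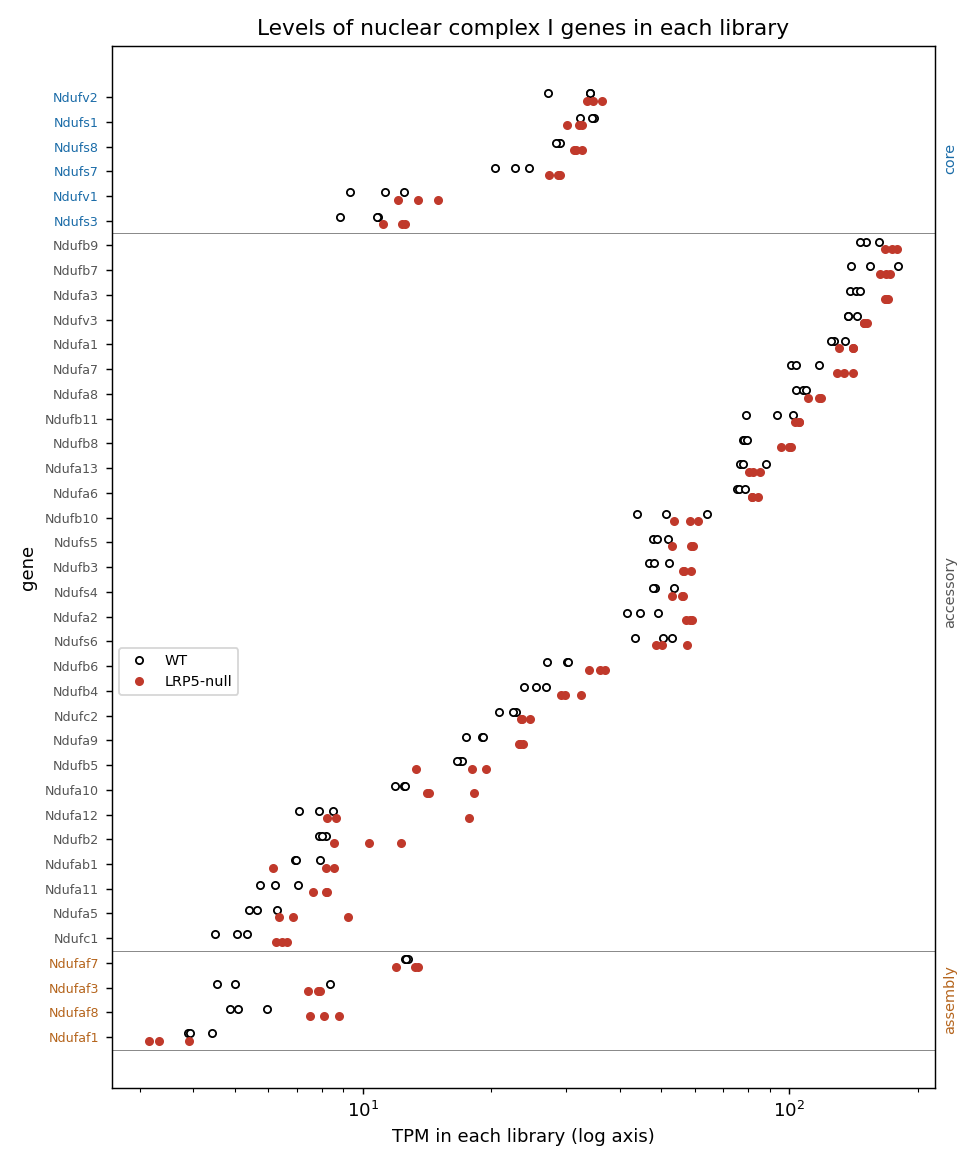
TPM of the tested complex I genes (horizontal log axis) in each library, open circles for WT and filled for LRP5-null, grouped by class and ordered by mean level. Levels run from 3.15 TPM for Ndufaf1 to 179 TPM for Ndufb7 and Ndufb9, and LRP5-null replicate 1 stands apart for Ndufa12.

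Among the 7 core subunits, 6 were higher and Ndufs1 was lower in the libraries labelled LRP5-null, with a median log2 fold change of 0.14. None was called, 1 (Ndufs7) had an unadjusted p under 0.05 (14.3% of the class, against 14.4% of all genes as higher), and in 3 (Ndufs3, Ndufs7 and Ndufs8) the groups did not overlap (42.9% against 17.4%). Their summed level was 178, 190 and 189 TPM against 198, 203 and 205 TPM. With GC and length trends removed, 4 core genes were higher and 3 lower, where 50% of all genes were higher.
Ndufs7, which carries the last iron-sulfur cluster before ubiquinone, was 20.4, 22.7 and 24.6 TPM in the libraries labelled WT and 27.3, 29 and 28.6 TPM in those labelled LRP5-null. All 3 values of the latter were above the WT range (log2 fold change 0.32, standard error 0.085, limma adjusted p = 0.114). Ndufs7 lies on chromosome 10 from 79711866 to 79719539 of NCBIM37 (mm9), on the plus strand, and its promoter is printed above. Without WT replicate 3 it was called at 0.38 (limma, adjusted p = 0.0225), and over its alternatives the adjusted p reached 0.341.
Ndufs3 and Ndufs8 belong to the part of the matrix arm that leads to ubiquinone. Ndufs3, the least abundant core gene, was 8.84, 10.9 and 10.8 TPM against 12.4, 12.5 and 11.2 TPM (log2 fold change 0.23, standard error 0.099, limma adjusted p = 0.220). Ndufs8, a further iron-sulfur subunit, was 28.8, 28.9 and 28.4 TPM against 32.6, 31.2 and 31.7 TPM (0.14, standard error 0.063, limma adjusted p = 0.223), a small gap between narrow groups, and with GC and length trends removed it was −0.02.
Ndufv1, Ndufv2 and Ndufs1 form the NADH-oxidising tip. Ndufv1, which binds the flavin and NADH, was 9.32, 11.3 and 12.5 TPM in the libraries labelled WT and 15, 12.1 and 13.5 TPM in those labelled LRP5-null, where only WT replicate 3 reached into the other group (log2 fold change 0.28, standard error 0.12, limma adjusted p = 0.221). Its iron-sulfur partner Ndufv2 was 34.0, 34.1 and 27.2 TPM against 33.5, 34.6 and 36.4 TPM (0.14, standard error 0.10, limma adjusted p = 0.444), with WT replicate 3 the low library. Ndufs1, the largest subunit and holder of several iron-sulfur clusters, was 32.3, 34.8 and 34.5 TPM against 32.1, 30.0 and 32.6 TPM, the one core gene lower in the libraries labelled LRP5-null (−0.10, standard error 0.071, limma adjusted p = 0.427). The tip thus held both the higher and the lower members, and none of them separated the groups.

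Of the 29 accessory subunits, 28 (96.6%, against 58.8% of all genes) had a log2 fold change above 0 and only Ndufb5 one below 0. Their median was 0.20. In mean TPM, Ndufb5 stood at 16.9 in both groups. None was called, 15 had an unadjusted p under 0.05 (51.7%, against 14.4% of all genes as higher) and in 20 the groups did not overlap (69.0% against 17.4%). The summed level was 1739, 1714 and 1725 TPM against 1981, 1970 and 1909 TPM, means of 1726 ± 12.6 and 1953 ± 38.9 TPM (SD, n = 3 each). The accessory genes held most of the summed TPM of the nuclear complex I genes.
Sorted by place with the core genes included, the matrix arm had 15 of 16 genes higher with a median of 0.18, the proximal membrane arm 9 of 9 with 0.20 and the distal membrane arm 9 of 10 with 0.21. Groups without overlap made up 9, 7 and 7 of these genes (56.2%, 77.8% and 70.0%, against 17.4% of all genes). The medians of the arms thus lay close to each other, and Ndufab1, the acyl carrier protein found in both arms, was left out of this sorting.
Ndufb8, a distal membrane arm subunit on chromosome 19 from 44623062 to 44629930 of NCBIM37 (minus strand), had the smallest p among the accessory genes. It was 77.7, 78.5 and 79.4 TPM in the libraries labelled WT and 100, 101 and 95.8 TPM in those labelled LRP5-null. Both groups were narrow and well apart, at 78.6 ± 0.84 and 98.9 ± 2.76 TPM (SD, n = 3 each; log2 fold change 0.33, standard error 0.061, limma adjusted p = 0.0648). Leaving out a library moved this only between 0.31 and 0.35. It was called without WT replicate 3 (limma, adjusted p = 0.0181), and its adjusted p over the alternatives reached 0.295.
Ndufb6, also of the distal arm, was 27.0, 30.1 and 30.3 TPM against 36.0, 36.9 and 33.9 TPM (0.28, standard error 0.077, limma adjusted p = 0.120). The groups stood apart here too, by a smaller margin. Ndufb4, the gene with 3 NRF1 matches in its window, was 26.9, 25.4 and 23.8 TPM against 32.5, 29.7 and 29.1 TPM (0.25, standard error 0.079, limma adjusted p = 0.140), and since RefSeq names a copy of it, Ndufb4b, its level is uncertain where reads fit both.
In the matrix arm, Ndufa9, a dehydrogenase-like subunit that holds a bound NADPH near the ubiquinone site, was 17.5, 19.0 and 19.1 TPM against 23.4, 23.7 and 23.3 TPM. The libraries labelled LRP5-null were almost level with each other and above the WT range (log2 fold change 0.32, standard error 0.070, limma adjusted p = 0.0855). Ndufa2, a small thioredoxin-fold subunit, was 41.5, 44.6 and 49.3 TPM against 57.3, 58.4 and 59.0 TPM (0.37, standard error 0.079, limma adjusted p = 0.0855). Ndufa7 was 101, 104 and 117 TPM against 141, 134 and 129 TPM (0.33, standard error 0.079, limma adjusted p = 0.102). In both, WT replicate 3 was the WT library closest to the other group.
In the proximal membrane arm, Ndufa3 was 139, 144 and 147 TPM against 171, 168 and 168 TPM (0.24, standard error 0.059, limma adjusted p = 0.103). Ndufc1, the least abundant accessory transcript, was 4.50, 5.33 and 5.06 TPM against 6.26, 6.47 and 6.62 TPM (0.32, standard error 0.083, limma adjusted p = 0.107). Groups were thus apart both in abundant and in scarce transcripts. Ndufa11, which sits where the proximal and distal parts meet, was 5.73, 6.23 and 7.03 TPM against 8.18, 8.25 and 7.65 TPM (0.30, standard error 0.089, limma adjusted p = 0.132). Each of Ndufb8, Ndufb6, Ndufa9, Ndufa2, Ndufa7, Ndufa3, Ndufc1 and Ndufa11 was called without WT replicate 3. Of these, only Ndufb8 and Ndufa9 were called in any other alternative.
At the other end, Ndufb5 of the distal arm was 16.9, 17.1 and 16.6 TPM against 13.3, 19.4 and 18.0 TPM (−0.01, standard error 0.13, limma adjusted p = 0.968). LRP5-null replicate 1 was the low library, and without it the value was 0.14. Ndufa13, known also as GRIM-19, was 76.8, 78.0 and 88.0 TPM against 80.4, 82.2 and 85.4 TPM (0.03, standard error 0.076, limma adjusted p = 0.821), with WT replicate 3 above all others, and it turned below 0 under median-ratio scaling, in which the median of all genes was 0.0032. Ndufb9, the most abundant member, was 163, 151 and 147 TPM against 179, 174 and 168 TPM (0.18, standard error 0.067, limma adjusted p = 0.179). The remaining accessory genes had log2 fold changes between 0.05 (Ndufab1) and 0.43 (Ndufa12), with limma adjusted p from 0.148 (Ndufb3) to 0.833 (Ndufab1).

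**Figure D3:**
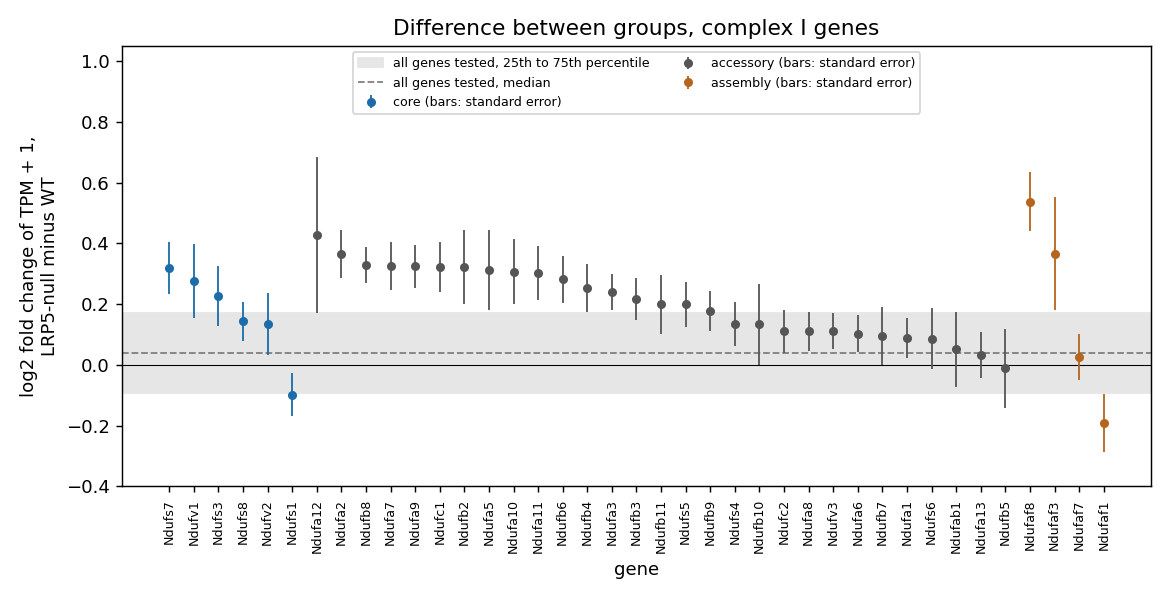
Log2 fold change of TPM + 1 (vertical axis, LRP5-null minus WT) of the tested complex I genes by class, with standard errors from limma, over the 25th to 75th percentile and the median of all genes tested (grey). All but Ndufs1, Ndufb5 and Ndufaf1 lie above 0, up to 0.54 for Ndufaf8.

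The assembly factors were low and mixed. Of the 4 tested, Ndufaf8, Ndufaf3 and Ndufaf7 were higher and Ndufaf1 was lower in the libraries labelled LRP5-null, with a median log2 fold change of 0.20. The 3 higher genes are 75% of the 4, against 58.8% of all genes tested. None was called, and Ndufaf8 alone had an unadjusted p under 0.05 (25%, against 14.4% of all genes as higher). It was also the only one whose groups did not overlap (25% against 17.4%). The 8 genes together gave 28, 29.6 and 32.7 TPM against 35.1, 34.6 and 34.7 TPM.
Ndufaf8, a partner of Ndufaf5 in the early steps of assembly, had the largest difference of the whole set. It was 4.87, 5.08 and 5.96 TPM in the libraries labelled WT and 8.12, 8.77 and 7.52 TPM in those labelled LRP5-null. The groups lay well apart, at 5.30 ± 0.58 and 8.14 ± 0.63 TPM (SD, n = 3 each), a ratio of means of 1.53 (log2 fold change 0.54, standard error 0.097, limma adjusted p = 0.0648). It lies on chromosome 11 from 119960242 to 119962018 of NCBIM37, on the plus strand. It was called without WT replicate 3 (0.61, limma adjusted p = 0.0123) and after rescaling without the most abundant genes (0.60, limma adjusted p = 0.0474), where 0.986% of all genes were called.
Ndufaf3, which joins the part of the complex that leads to ubiquinone, was 4.55, 5.0 and 8.35 TPM against 7.93, 7.45 and 7.83 TPM. WT replicate 3 was the highest library of all 6, 1.67 times the next WT library. The difference (log2 fold change 0.37, standard error 0.19, limma adjusted p = 0.276) rested on the other WT libraries: without WT replicate 3 it was 0.60 (limma adjusted p = 0.0115), and against that library alone −0.10. The same library set the median of the assembly factors, which was 0.31 without it and −0.04 against it alone.
Ndufaf1, which acts on intermediates of the membrane arm, was 3.89, 4.43 and 3.93 TPM against 3.15, 3.91 and 3.32 TPM, the lowest log2 fold change of the set (−0.19, standard error 0.095, limma adjusted p = 0.269). LRP5-null replicate 2 lay within the WT range. Ndufaf7, a methyltransferase, was 12.6, 12.7 and 12.7 TPM against 13.3, 12 and 13.5 TPM (0.03, standard error 0.075, limma adjusted p = 0.860), around the WT level, and its sign turned under median-ratio scaling and quantile normalization.
The other 4 assembly factors had a mean under 1 TPM and were not tested. Ndufaf2, a paralog of the subunit Ndufa12, was 0.65 to 0.93 TPM in the libraries labelled WT and 0.91 to 0.97 TPM in those labelled LRP5-null. Ndufaf5, which modifies Ndufs7, ranged from 0.55 to 0.92 TPM and from 0.93 to 1.07 TPM. Ndufaf6 ranged from 0.24 to 0.43 TPM and from 0.45 to 0.67 TPM, and Ndufaf4, which works with Ndufaf3, from 0.10 to 0.25 TPM and from 0.089 to 0.096 TPM. For Ndufaf5 and Ndufaf6 the libraries labelled LRP5-null lay above those labelled WT, and for Ndufaf4 below, at levels where TPM carries no measure of counting error.
Of the rows outside these classes, Ndufa4 was 38.6, 38.3 and 40.3 TPM against 49.0, 50.5 and 45.5 TPM, groups well apart (log2 fold change 0.30, standard error 0.070, limma adjusted p = 0.0975). Ndufa4l2, a paralog known for its induction under low oxygen, was listed at 0 in all libraries but WT replicate 2 (0.017 TPM), and Ndufab1-ps did not exceed 0.045 TPM.

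The subunits encoded by mitochondrial DNA were not higher as a group. Their 7 genes summed to 662, 288 and 259 TPM in the libraries labelled WT and to 268, 225 and 282 TPM in those labelled LRP5-null, and WT replicate 1 stood far above the other libraries. WT replicate 2 was also above every LRP5-null library in mt-Nd1, mt-Nd2 and mt-Nd5, but mt-Nd4, at 11.1 TPM there against 176 and 83.2 TPM in the other WT libraries and 83.0, 29.6 and 88.0 TPM in those labelled LRP5-null, kept its sum low. Almost nothing of these sums came from mt-Nd3 (at most 0.12 TPM in any library) and mt-Nd4l (at most 0.45 TPM), which were not tested. The listed spans of mt-Nd4l (9877 to 10173) and mt-Nd4 (10167 to 11544) overlap. How reads were assigned to such genes is not given, so their values and the sums may not follow transcript levels. Of the 5 tested, 4 were lower and 1 was higher (20%, against 58.8% of all genes). None was called by limma and 0 had an unadjusted p under 0.05. mt-Nd2 was 114, 62.6 and 35.9 TPM against 36.2, 40.0 and 38.3 TPM (−0.72, limma adjusted p = 0.258), mt-Nd1 203, 121 and 74.2 TPM against 79.3, 82.4 and 84.1 TPM (−0.57, limma adjusted p = 0.303), and mt-Nd5 135, 74.1 and 52.7 TPM against 54.8, 57.3 and 56.3 TPM (−0.52, limma adjusted p = 0.320). In all of these, WT replicate 3 lay below the libraries labelled LRP5-null, so that against it alone the values were 0.085, 0.14 and 0.089. Without WT replicate 3 they were called, at −1.13, −0.93 and −0.83 (limma, adjusted p = 0.0251, 0.0275 and 0.0498), in a fit that called 19.6% of all genes.
Assembly factors of other names were mixed. Of 10 listed, 7 were tested, 3 higher (42.9%, against 58.8% of all genes) and 4 lower. Their median was −0.00059 and none was called (0 with an unadjusted p under 0.05). Tmem70, which acts in the assembly of complexes I and V, was 7.35, 6.61 and 5.66 TPM against 3.36, 3.51 and 6.70 TPM (−0.49, limma adjusted p = 0.221), with LRP5-null replicate 3 inside the WT range. Timmdc1, a membrane arm factor, was 9.61, 10.4 and 9.52 TPM against 9.13, 8.59 and 8.68 TPM (−0.15, limma adjusted p = 0.273). Acad9, an acyl-CoA dehydrogenase with a role in assembly, had 0.18 (limma adjusted p = 0.547). The difference between these factors and the Nduf genes was not tested.
Nuclear subunits of complexes II to V had values close to those of complex I, with 33 of 39 genes higher (84.6%, against 58.8% of all genes) and a median of 0.19. The groups did not overlap in 18 (46.2% against 17.4%), 16 had an unadjusted p under 0.05 (41.0% against 14.4%), and none was called. The smallest p belonged to Cox7a2, Atp5k and Atp5l (limma adjusted p = 0.0781, 0.0892 and 0.0938, at 0.31, 0.30 and 0.28). Of the regulators of mitochondrial biogenesis, 3 of 7 tested were higher (42.9% against 58.8%). Their median was −0.05 and none was called (0 with an unadjusted p under 0.05). Nrf1, which encodes the factor of the motif above, was 18.4, 16.7 and 20.3 TPM against 22.0, 20.7 and 20.4 TPM (0.18, limma adjusted p = 0.259). Gabpa, an ETS-family factor, was 17.8, 14.5 and 15.6 TPM against 13.3, 13.4 and 14.5 TPM (−0.20, limma adjusted p = 0.243). Yy1 had −0.11 (limma adjusted p = 0.417), and the coactivator genes Ppargc1a and Ppargc1b were listed at 0 throughout.

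Markers of dividing cells, like complex I genes, were mostly higher in the LRP5-null group. Of 12 such genes 11 had a higher mean there (91.7%, against 58.8% of all genes), with none called and 5 at an unadjusted p under 0.05 (41.7% against 14.4%), and their summed level was 234 to 236 TPM in the libraries labelled WT and 258 to 266 TPM in those labelled LRP5-null. Of 14 genes of immature neutrophils 12 were higher (85.7% against 58.8%), 6 of them at an unadjusted p under 0.05 (42.9% against 14.4%, summed 72911 to 80085 and 75808 to 79909 TPM). Of 12 genes of mature neutrophils 2 were higher (16.7% against 58.8%) and 10 lower. Of the lower ones, 6 had an unadjusted p under 0.05 (against 9.12% of all genes as lower, summed over the list 37822 to 41854 and 36463 to 37804 TPM). None of these genes was called, none was listed at 0 throughout, and their part in the complex I result was not tested.
Markers of other marrow lineages were far lower, with sums that at most reached 72.0 TPM. The sums of T and NK cell markers (11.6 to 13.5 and 15.7 to 17.3 TPM), eosinophil and mast cell markers (10.0 to 12.7 and 13.3 to 14.4 TPM) and megakaryocyte markers (3.76 to 5.42 and 5.80 to 6.72 TPM) did not overlap between the groups. Cd3d (9.33 to 10.6 and 13.4 to 14.5 TPM) carried most of the first of these sums, while the T cell marker Cd3e was at most 0.180 TPM, and Prg2 (0.850 to 1.16 and 2.33 to 3.13 TPM) carried most of the difference in the second. The sums of monocytes and macrophages (53.0 to 64.7 and 63.3 to 72.0 TPM), B cells (13.4 to 15.3 and 13.5 to 14.6 TPM) and erythroid cells (48.5 to 57.4 and 43.1 to 54.5 TPM) overlapped. Csf1r carried most of the monocyte and macrophage sum. Of the 7 genes tested in that list, 5 were higher (71.4%, against 58.8% of all genes) and 2 lower. The groups did not overlap in 3 of them (42.9% against 17.4%), all higher: Adgre1, C1qa and C1qb (0.36, 0.24 and 0.44, limma adjusted p = 0.103, 0.160 and 0.0648). Each list counted 2 to 7 tested genes, Prg2 of the eosinophil list was the one called (0.91, limma adjusted p = 0.0341), and the part of these lineages in the complex I result was not tested. Reads in introns, 7.78% to 9.0% in the libraries labelled WT and 10.6% to 11.2% in those labelled LRP5-null, were apart as well.

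**Figure D4:**
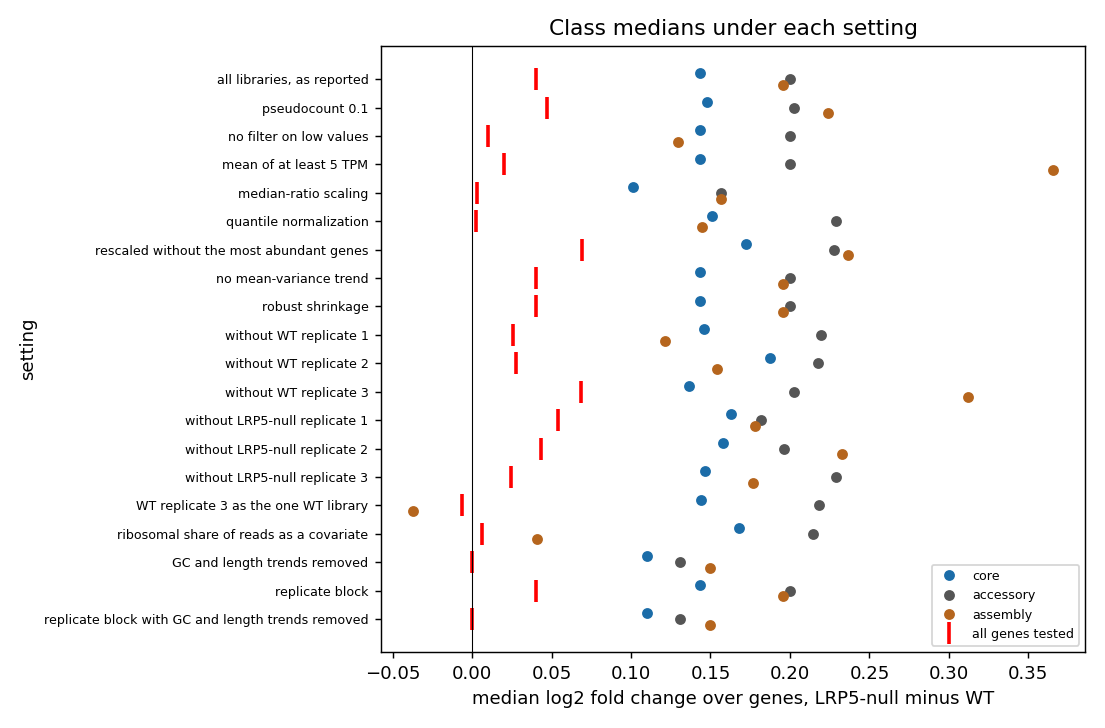
Median log2 fold change (horizontal axis, LRP5-null minus WT) of the tested core, accessory and assembly genes and of all genes tested (red ticks) under each setting of the analysis. Core medians stay between 0.10 and 0.19 and accessory medians between 0.13 and 0.23, while the assembly median, from few genes, runs from −0.04 to 0.37.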

How the data were processed

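Bone marrow neutrophils were measured by RNA sequencing. The authors aligned reads to mm9, name the DESeq2 pipeline, and deposited TPM, scaled per library to one total. The tool behind the TPM values is not given in the sources used here. A summary per library, also from the authors, holds read counts, the percent of reads in each class and a ratio of coverage at transcript ends, all deposited beside the TPM. The labels name a Percoll gradient and an mRNA kit, the methods a sort of CD11b and Ly6G double-positive cells and a total RNA kit.
The 9775 genes averaging 1 TPM or more were fitted on log2(TPM + 1), which understates changes of low genes, with limma 3.58.1 in R 4.3.3 (mean-variance trend, Benjamini-Hochberg). TPM holds no counts, so no count model was used and depth per gene is unknown. Classes are described by counts and medians. The fits were tested on simulated data. GC content and length were those of the longest coding transcript in GENCODE M1 (89.7% of genes tested, 41 of 41 Nduf genes tested), and their trends were splines with 4 degrees of freedom per term. The alternatives were another pseudocount (0.1), no filter (rows above 0 in some library) or at least 5 TPM, 3 scalings, limma options, each library left out, WT replicate 3 alone, the ribosomal share as a covariate, trend removal and a replicate block. Named were core genes, the 8 accessory genes and 3 assembly factors with the smallest p, lower accessory genes, the most and least abundant of each class, and 3 genes of other lists by smallest p. Ndufb4, Yy1, Prg2 and others were named after their values were seen. One member enters the class counts, medians and sums but is not reported here by itself, in the text or the plots. Members and lists were chosen with earlier results of these data known.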

Additional observations from a re-analysis of the deposited data

How the results depend on the processing

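The fit was repeated under 19 alternatives. The number of complex I genes called was 0 in the reported fit and in most alternatives, 1 after rescaling without the most abundant genes, 3 with GC and length trends removed, and 0 to 11 with each library left out (11 without WT replicate 3). Groups that did not overlap, 24 of the 40 genes as higher and 0 as lower in the reported fit, became 16 and 1 under median-ratio scaling. With GC and length trends removed they were 16 and 2. Among the accessory genes the 20 as higher fell to 13 in both settings. The shares over all genes were not taken there. Core and accessory medians were above 0 in every alternative. The core median of 0.14 was 0.10 under median-ratio scaling and 0.14 to 0.19 with a library left out. The accessory median of 0.20 was 0.16 under median-ratio scaling, 0.23 under quantile normalization, 0.23 after rescaling, 0.13 with the trends removed, with or without the replicate block, and 0.18 to 0.23 with a library left out. The assembly median of 0.20 was 0.37 at a mean of at least 5 TPM (3 genes), 0.041 with the ribosomal share as a covariate, −0.037 against WT replicate 3 alone and 0.12 to 0.31 with a library left out. Without a filter 6 of 8 assembly factors were higher, as more of them are tested. For other changes the cause was not tested.
Signs turned mostly in genes close to 0, but also in Ndufaf3 and the mitochondrially encoded genes. With GC and length trends removed they were −0.016 for Ndufs8, −0.14 for Ndufa13, −0.036 for Ndufa6, −0.022 for Ndufa8, −0.020 for Ndufb10, −0.10 for Ndufb7 and −0.012 for Ndufv3, the same with the replicate block added. Against WT replicate 3 alone they were −0.089 for Ndufa13, 0.011 for Ndufb5, −0.10 for Ndufaf3, 0.085 for mt-Nd2, 0.14 for mt-Nd1 and 0.089 for mt-Nd5. With the ribosomal share as a covariate Ndufa13 was −0.053. Median-ratio scaling gave −0.011 for Ndufa13 and −0.015 for Ndufaf7, quantile normalization −0.013 for Ndufaf7 and rescaling 0.014 for Ndufb5. With a library left out, Ndufa13 ranged from −0.0031 to 0.094, Ndufab1 from −0.030 to 0.18, Ndufb5 from −0.11 to 0.14, Ndufaf7 from −0.0045 to 0.076 and Acad9 from −0.027 to 0.31.
WT and LRP5-null libraries share replicate numbers. Deviations from the group means correlated at 0.23, −0.0075 and 0.13 between libraries of the same number, so the numbers were not taken as pairs, and WT replicate 2 correlated best with LRP5-null replicate 3 (0.022). With the replicate block, 0 complex I genes were called, the medians stayed at 0.14, 0.20 and 0.20, and 4 of all genes were called in place of 52. TPM keeps no depth, so differences in the genes under 1 TPM could not be judged.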

Other observations

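Single libraries stood apart for single complex I genes. Ndufa12, an accessory subunit of the matrix arm, was 17.8 TPM in LRP5-null replicate 1 and 8.66 and 8.22 TPM in replicates 2 and 3, where the libraries labelled WT ranged from 7.08 to 8.52 TPM. Its log2 fold change of 0.43, the largest of the accessory genes, fell to 0.10 without that library. The same library was high for Ndufa5 (9.22 TPM against 6.87 and 6.36 TPM) and Ndufa10 (18.3 TPM against 14.1 and 14.3 TPM) and low for Ndufb5 (13.3 TPM), Ndufb2 (8.56 TPM against 12.3 and 10.3 TPM) and Ndufab1 (6.14 TPM against 8.57 and 8.17 TPM). WT replicate 1 was high for Ndufb10 (64.0 TPM against 43.9 and 51.4 TPM) and Ndufb7 (179 TPM against 154 and 140 TPM). Over the 40 genes tested, WT replicate 1 was the lowest WT library in 24 and WT replicate 3 the highest in 17.

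Mitochondrial ribosomal protein genes build the ribosome that translates the mitochondrially encoded complex I subunits. Of 72 tested, 56 were higher (77.8%, against 58.8% of all genes). Their median log2 fold change was 0.11, against 0.04 for all genes, and none was called by limma. An unadjusted p under 0.05 was given by 15 as higher (20.8% against 14.4%) and by 1 as lower (against 9.12% of all genes). Their groups did not overlap in 18 as higher (25%, against 17.4% of all genes tested) and in 2 as lower (against 12.3%).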
